A study of Mus musculus with 28 samples.

Results

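Retinal microglia were examined 4 h after an intravitreal injection of lipopolysaccharide (LPS), the model known as endotoxin-induced uveitis, in 2 experiments. Of the 28 retinas in the series 6 were taken at this time, and the experiment given in their labels placed retinas 1 to 3 in experiment 1 and retinas 4 to 6 in experiment 2. All mice were male and heterozygous for Cx3cr1CreER:R26-tdTomato on C57BL/6, so that tamoxifen-activated Cre, driven by the fractalkine receptor gene, had switched on tdTomato. From each single retina live microglia (tdTomato-high, DRAQ7-negative) were sorted, and their polyadenylated RNA was amplified and sequenced. The baseline of each experiment was its own naïve retinas, 6 in experiment 1 and 4 in experiment 2, which were not injected, so an effect of the injection itself cannot be told apart from that of LPS. Retinas at 18 h (4 in experiment 1 and 1 in experiment 2) and at 2 weeks (4 and 3) shared the fit. The labels do not say what differed between the experiments or which retinas came from 1 mouse, and p-values therefore measure only the spread between these retinas. Of 40021 genes listed, 10183 reached 1 RPKM (a read count scaled to transcript length and library size) in at least 3 of the 6 retinas and were tested.

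LPS is sensed by toll-like receptor 4, which signals along separate branches. One of them, through MyD88, quickly activates NF-κB and induces cytokines, chemokines and the inhibitors that later limit the pathway. The other, through TRIF, activates IRF3 and induces interferon-β, which acts back through its receptor and induces interferon-stimulated genes. Resting microglia carry a set of surveillance genes, such as P2ry12 and Gpr34, that are known to decline when the cells are activated.

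The comparison addressed which components of this early response were found in both experiments. Chemokines had a similar median response in the 2 experiments. The median of NF-κB genes varied by retina within each experiment, and that of cytokines varied mainly within experiment 2. Interferon-stimulated genes were well above naïve in experiment 1 and near naïve in experiment 2. The neutrophil chemokines Cxcl1 and Cxcl2 and the cytokine Il10 were higher in experiment 2 at 4 h. Il10 passed the filter only through the retinas of experiment 2, and the difference between its responses missed the threshold. Levels are given as RPKM. Differences are on the log2(RPKM + 1) scale with their standard error, always as experiment 1 minus experiment 2 or as 4 h minus naïve. A gene is said to be called, induced, reduced or different where its adjusted p was 0.05 or lower and it changed 2-fold or more.

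Promoters of 8 genes are shown, because the transcription factors of the separate branches bind different DNA elements. The sequences are RefSeq's on GRCm38.p6, from 250 bases before the start of the gene to 50 after it, 5′ to 3′. Capitals mark a match, on either strand, to the core of the interferon-stimulated response element (ISRE, GAAANNGAAA) or to the NF-κB consensus. The first set holds Herc6 and Dtx3l, the interferon-stimulated genes with the smallest p between the experiments at 4 h, and the cytokines Il12b and Tnf, induced in both experiments. It has no match:
Herc6, chr6:57580742-57581041, plus strand: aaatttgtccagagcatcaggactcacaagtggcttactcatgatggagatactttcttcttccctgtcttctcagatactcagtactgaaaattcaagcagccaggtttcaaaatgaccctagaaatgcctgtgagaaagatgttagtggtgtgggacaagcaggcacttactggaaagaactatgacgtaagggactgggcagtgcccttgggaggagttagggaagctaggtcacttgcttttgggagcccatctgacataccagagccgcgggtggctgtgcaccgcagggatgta
Dtx3l, chr16:35938978-35939277, minus strand: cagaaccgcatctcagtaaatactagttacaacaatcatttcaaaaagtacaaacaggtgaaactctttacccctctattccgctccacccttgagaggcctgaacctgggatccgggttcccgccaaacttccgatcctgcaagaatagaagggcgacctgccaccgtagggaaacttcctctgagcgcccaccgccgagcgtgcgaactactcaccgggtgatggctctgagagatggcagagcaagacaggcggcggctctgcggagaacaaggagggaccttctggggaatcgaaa
Il12b, chr11:44399813-44400112, plus strand: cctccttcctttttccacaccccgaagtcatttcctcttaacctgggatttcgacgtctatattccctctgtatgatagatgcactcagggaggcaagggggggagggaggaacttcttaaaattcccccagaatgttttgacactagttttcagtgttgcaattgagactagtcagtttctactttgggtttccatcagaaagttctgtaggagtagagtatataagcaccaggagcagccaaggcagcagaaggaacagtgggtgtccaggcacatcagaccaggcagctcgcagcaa
Tnf, chr17:35201958-35202257, minus strand: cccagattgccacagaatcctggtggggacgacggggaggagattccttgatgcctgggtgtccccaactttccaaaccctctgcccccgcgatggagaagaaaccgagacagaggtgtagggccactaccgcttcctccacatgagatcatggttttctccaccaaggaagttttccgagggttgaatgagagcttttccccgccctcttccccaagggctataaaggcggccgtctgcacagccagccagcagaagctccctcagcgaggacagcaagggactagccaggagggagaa

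The second set was chosen after the matches had been seen, to show genes that hold them. It holds the interferon-inducible genes Ifit1 and Gbp5, the chemokine Cxcl1, which varied between the experiments, and the chemokine Cxcl10, which was induced in both:
Ifit1, chr19:34640639-34640938, plus strand: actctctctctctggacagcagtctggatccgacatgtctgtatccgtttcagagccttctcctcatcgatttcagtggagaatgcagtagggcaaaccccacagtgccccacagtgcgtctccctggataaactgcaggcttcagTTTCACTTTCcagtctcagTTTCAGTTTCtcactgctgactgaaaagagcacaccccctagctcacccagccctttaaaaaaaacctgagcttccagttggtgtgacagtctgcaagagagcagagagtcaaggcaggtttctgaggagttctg
Gbp5, chr3:142496684-142496983, plus strand: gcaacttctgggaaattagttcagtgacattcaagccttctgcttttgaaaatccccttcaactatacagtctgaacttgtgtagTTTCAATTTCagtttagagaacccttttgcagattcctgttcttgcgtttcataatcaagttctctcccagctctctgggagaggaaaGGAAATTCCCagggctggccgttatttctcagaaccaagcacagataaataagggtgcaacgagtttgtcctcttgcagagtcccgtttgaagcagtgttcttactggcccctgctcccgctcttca
Cxcl1, chr5:90890995-90891294, plus strand: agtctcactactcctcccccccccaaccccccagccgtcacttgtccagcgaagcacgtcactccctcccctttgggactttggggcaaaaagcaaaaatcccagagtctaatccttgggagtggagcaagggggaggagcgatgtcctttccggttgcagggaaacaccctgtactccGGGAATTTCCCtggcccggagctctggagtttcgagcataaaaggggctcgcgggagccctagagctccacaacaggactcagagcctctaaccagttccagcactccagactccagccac
Cxcl10, chr5:92348840-92349139, minus strand: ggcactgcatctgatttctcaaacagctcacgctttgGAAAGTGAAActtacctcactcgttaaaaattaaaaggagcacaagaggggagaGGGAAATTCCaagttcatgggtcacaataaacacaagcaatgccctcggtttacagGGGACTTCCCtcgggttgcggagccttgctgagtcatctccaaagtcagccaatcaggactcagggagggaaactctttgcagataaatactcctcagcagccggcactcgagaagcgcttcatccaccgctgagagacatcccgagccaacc

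Ifit1 held 2 ISRE cores, and Gbp5 held 1 ISRE core and 1 NF-κB match. Cxcl1 held 2 overlapping NF-κB matches, and Cxcl10 held 1 ISRE core and 2 NF-κB matches. Of all 27025 promoters, 3.99% held the ISRE core and 5.14% the NF-κB consensus. Of the interferon-stimulated genes tested, 17 of the 33 with a promoter in the table held an ISRE core (51.5%), as did 9 of 10 interferon-inducible GTPases (90.0%). Of the genes induced in both experiments, 28 of 105 held an NF-κB match (26.7%) and 11 an ISRE core (10.5%). Of the genes higher in experiment 1, 4 of 28 held an ISRE core (14.3%) and 2 an NF-κB match (7.14%). Of the genes higher in experiment 2, 0 of 11 held an ISRE core and 2 an NF-κB match (18.2%). These counts describe letters in a short window and not binding.

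The 6 libraries had 10500000 to 19700000 alignments and 8254 to 10441 genes at 1 RPKM or more. Retina 1 stood apart: over all genes it correlated at r = 0.717 and 0.766 with the other retinas of its own experiment and at 0.813, 0.890 and 0.851 with those of experiment 2. Mitochondrial genes made up 0.757% of its summed RPKM, against 3.01% to 4.79% in the other five. Naïve retina 1, part of the baseline of experiment 1, was also low, at 0.71% against 3.28% to 5.78% in the other naïve retinas. It lay above the naïve mean of its experiment by a median of 1.55 for immediate early genes and 1.17 for NF-κB genes, and its deviations over all genes correlated at 0.712 with those of 4 h retina 1. Without both, 179 genes were called at 4 h and 43 for the difference in response, against 63 and 17 with them. Over the 3 retinas of a group the median gene had an SD of 0.718 in experiment 1 and 0.373 in experiment 2 on the log2 scale, and over naïve retinas of 1.06 and 0.296. The 11 rod photoreceptor markers, all of which were tested, summed to 1244 to 4150 RPKM in experiment 1 and to 4243 to 5484 RPKM in experiment 2. Müller glia markers summed to 52.7 to 166 RPKM and to 171 to 206 RPKM, and erythrocyte markers to 13.9 to 25.4 RPKM and to 29.4 to 735 RPKM, with Hbb-bs at 239 RPKM in retina 5. These 3 sums were thus higher in every retina of experiment 2, and their part in the results was not tested. The defining markers Ly6g and S100a8 (neutrophils), Ccr2 (monocytes), Cd3e and Cd79a (lymphocytes) and Cdh5 (endothelium) were at 0.302 RPKM or less in all 6 retinas. Other genes of these lists were not at 0. Neutrophil markers summed to 0.321 to 37.8 RPKM in experiment 1 and to 8.14 to 17.1 RPKM in experiment 2, with 1 of 13 tested (Csf3r). Monocyte markers summed to 0.694 to 18.1 RPKM and to 6.04 to 10.7 RPKM, with 2 of 9 tested, and Plac8 reached 12.8 RPKM. Lymphocyte markers summed to 6.62 to 18.3 RPKM and to 12.3 to 16.7 RPKM, with 1 of 12 tested (Cd79b), and border macrophage markers to 36.8 to 207 RPKM and to 125 to 348 RPKM, with 5 of 7 tested. The experiments overlapped in these 4 sums, whose part in the results was not tested. The microglial P2ry12, Cx3cr1 and Tmem119 were present in each. In sorted bulk samples a change in the mix of cells and a change in RNA per cell cannot be told apart.

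In experiment 1, 568 genes were induced at 4 h (5.58% of genes tested) and 388 were reduced (3.81%). In experiment 2, 190 genes were induced (1.87%) and 56 were reduced (0.55%). Both experiments called 156 genes induced (1.53%) and 50 reduced (0.491%), and 0 genes were called in opposite directions. These shares of all genes tested are the background for the counts of called genes in each list below. The order of the totals rests on the spread shared by all 28 retinas. With only its own naïve and 4 h retinas in the fit, experiment 1 gave 328 called genes and experiment 2 gave 1309, of which 233 were called in both.

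The direction of change was mostly found again. Of the 568 genes induced in experiment 1, 500 also had a positive difference in experiment 2, and of the 190 induced in experiment 2, 188 had one in experiment 1. Of the 388 reduced in experiment 1, 381 had a negative difference in experiment 2. For comparison, the difference was positive for 5522 of all 10183 genes in experiment 1 and for 3763 in experiment 2. The genes induced in experiment 1 had a median difference of 2.32 there and of 1.12 in experiment 2. Those induced in experiment 2 had a median of 2.86 there and of 2.90 in experiment 1. Over all 10183 genes the responses, which share no retinas, correlated with Pearson r = 0.661 and Spearman rho = 0.509, as a description across genes that are not independent of each other.

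**Figure D1:**
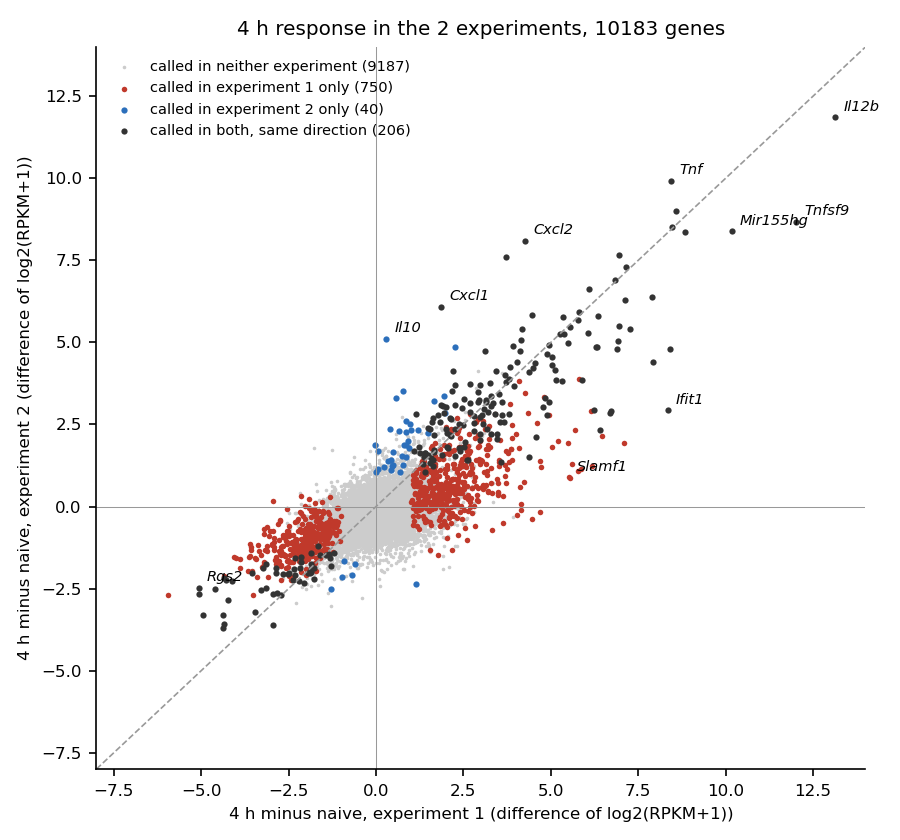
Difference between 4 h and naïve microglia on the log2(RPKM + 1) scale, experiment 1 on the x axis and experiment 2 on the y axis, with 1 point for each of 10183 genes. All genes called in both experiments changed in the same direction. The difference in response was called for 7 of the 156 induced in both and for 0 of the 50 reduced in both. Of the labelled genes, Ifit1 and Slamf1 lie on the side of experiment 1 and Cxcl1, Cxcl2 and Il10 on that of experiment 2. Ifit1, Cxcl1 and Cxcl2 are themselves called in both.

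Among the cytokines induced in both experiments, Il12b and Tnfsf9 had the largest responses in experiment 1. Il12b encodes the p40 subunit shared by interleukin-12 and interleukin-23 (chr11:44400063-44414033 on GRCm38, protein-coding). It was at 11307, 9008 and 7271 RPKM in experiment 1 and at 2333, 4823 and 5031 RPKM in experiment 2, against 0.0799 RPKM or less in naïve retinas. Every injected retina was above every naïve one, and the response was 13.12 ± 0.67 (adjusted p = 4.79e-13) and 11.87 ± 0.73 (adjusted p = 2.29e-11). Tnfsf9, the ligand of the costimulatory receptor 4-1BB, was at 7486, 7330 and 6796 RPKM in experiment 1 and at 1687, 4102 and 3168 RPKM in experiment 2. In both genes the 3 retinas of experiment 1 were the highest, and the difference between the experiments was not called (adjusted p = 0.777 and 0.832).

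The pyrogenic cytokines Tnf and Il1b had the opposite order of means. Tnf was at 1351, 291 and 340 RPKM in experiment 1 and at 1678, 3291 and 2161 RPKM in experiment 2, against 4.29 RPKM or less in naïve retinas. Its 2 groups did not overlap, its response was 8.45 ± 0.65 (adjusted p = 5.71e-10) and 9.93 ± 0.70 (adjusted p = 3.47e-10), and the difference between experiments was not called (adjusted p = 0.334). Il1b was at 905, 457 and 320 RPKM in experiment 1 and at 874, 3968 and 1013 RPKM in experiment 2, and its groups overlapped. Its response was 8.58 ± 0.87 in experiment 1 and 9.0 ± 0.94 in experiment 2. Of 17 cytokine genes tested, 11 were induced in experiment 1, 9 in experiment 2 and 7 in both, and the median response was 3.50 in experiment 1 and 2.86 in experiment 2, against 0.09 and -0.20 over all genes. By retina the cytokine median above naïve was 4.08, 4.07 and 3.43 in experiment 1 and 1.97, 5.28 and 1.73 in experiment 2, so that retina 5 was above and retinas 4 and 6 below all of experiment 1. The median difference at 4 h was -0.58, went to -1.23 without retina 1 and turned to 0.21 without retina 5.

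Of the cytokines, Il27 and Il10 were called between the experiments. Il27, the p28 subunit of interleukin-27 (chr7:126589010-126594941 on GRCm38), was at 72.7, 113 and 77.4 RPKM in experiment 1 and at 7.40, 18.4 and 2.90 RPKM in experiment 2. Naïve retinas were at 0 to 1.91 RPKM in experiment 1 and at 1.99 to 3.20 RPKM in experiment 2. It was induced in experiment 1 by 6.19 ± 0.67 (adjusted p = 2.43e-07), its difference in experiment 2 was 1.23 ± 0.72 (adjusted p = 0.713), and the responses differed by 4.96 ± 0.99 (adjusted p = 0.0247). At 4 h it differed by 3.34 ± 0.77 (adjusted p = 0.0384). Both calls between the experiments were kept in 8 of 16 left-out retinas and lost without any 1 of 4 h retinas 2, 3, 4 and 6 and naïve retinas 7, 8, 9 and 10, with adjusted p up to 0.193 for the response and 0.622 at 4 h over all alternatives. Il10, an anti-inflammatory cytokine (chr1:131019845-131024974 on GRCm38), was at 0.837, 0 and 0 RPKM in experiment 1 and at 3.42, 148 and 88.7 RPKM in experiment 2, with both zeros as listed. Naïve retinas were listed at 0 in experiment 1 and reached 0.604 RPKM in experiment 2. Il10 passed the filter only through the retinas of experiment 2, so its 4 h groups could not overlap. They differed by -4.99 ± 0.86 (adjusted p = 0.0026). Experiment 2 induced it by 5.11 ± 0.81 (adjusted p = 0.00016), and the difference between the responses missed the threshold (adjusted p = 0.0606).

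Chemokines had a similar median response in the 2 experiments. Of 19 tested, 15 were induced in experiment 1, 12 in experiment 2 and 12 in both, with a median response of 3.60 in experiment 1 and 3.29 in experiment 2. Their median difference between the experiments at 4 h was -0.02, against -0.24 over all genes. Ccl4 and Ccl3, which attract monocytes and T cells, were among the most abundant. Ccl4 was at 33776, 16822 and 13241 RPKM in experiment 1 and at 41525, 34135 and 25584 RPKM in experiment 2. Ccl3 was at 9645, 40449 and 25731 RPKM in experiment 1 and at 27220, 21780 and 14130 RPKM in experiment 2. In both genes the groups overlapped. Cxcl10, a ligand of CXCR3, was at 1495, 1353 and 1219 RPKM in experiment 1 and at 2566, 1271 and 1434 RPKM in experiment 2, and its response was 8.47 ± 1.16 (adjusted p = 9.98e-06) and 8.50 ± 1.26 (adjusted p = 6.94e-05).

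Cxcl1 and Cxcl2, which attract neutrophils through CXCR2, were the chemokines called between the experiments. Cxcl1 (chr5:90891241-90893115 on GRCm38) was at 0.877, 5.46 and 3.47 RPKM in experiment 1 and at 42.0, 134 and 62.8 RPKM in experiment 2, against 0.335 RPKM or less in naïve retinas. Every retina of experiment 2 was above every retina of experiment 1. Both experiments induced it, by 1.85 ± 0.35 (adjusted p = 0.000612) and 6.09 ± 0.38 (adjusted p = 2.29e-11), and it differed at 4 h by -4.25 ± 0.40 (adjusted p = 6.17e-07) and in its response by -4.24 ± 0.51 (adjusted p = 8.36e-05). Cxcl2 (chr5:90903871-90905938 on GRCm38) was at 60.1, 19.1 and 6.77 RPKM in experiment 1 and at 227, 781 and 268 RPKM in experiment 2, again without overlap, and differed at 4 h by -4.10 ± 0.64 (adjusted p = 0.000844). It was induced by 4.27 ± 0.56 and 8.10 ± 0.60. The difference between its responses (adjusted p = 0.0458) was lost on leaving out any of 15 of the 16 naïve and 4 h retinas, with adjusted p up to 0.996 over all alternatives.

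Genes of the NF-κB pathway varied by retina within each experiment. Of 24 tested, 17 were induced in experiment 1, 12 in experiment 2 and 11 in both, with a median response of 2.69 in experiment 1 and 2.58 in experiment 2 and a median difference between experiments of 0.01. By retina the median above naïve was 4.26, 1.89 and 1.90 in experiment 1 and 1.83, 3.52 and 2.26 in experiment 2, highest in retinas 1 and 5. Without retina 1 the median response in experiment 1 was 1.79 and the median difference -0.29, and without retina 5 the median response in experiment 2 was 2.02. Nfkbia, which retains NF-κB in the cytoplasm, was at 2846, 582 and 508 RPKM in experiment 1 and at 1257, 1773 and 1705 RPKM in experiment 2. Tnfaip3, the deubiquitinase A20 that limits the pathway, was at 171, 135 and 116 RPKM in experiment 1 and at 85.0, 110 and 104 RPKM in experiment 2. Nfkbiz, a nuclear cofactor for secondary response genes, was at 85.7, 50.6 and 56.5 RPKM in experiment 1 and at 112, 77.9 and 113 RPKM in experiment 2. None of these 3 was called between the experiments (adjusted p = 0.886, 0.932 and 0.914). Tnip3, whose product binds A20, behaved otherwise. It was at 58.2, 136 and 78.1 RPKM in experiment 1 and at 0.837, 15.2 and 3.74 RPKM in experiment 2, against 0.106 RPKM or less in naïve retinas, without overlap between experiments. Induction was called in both, at 6.4 ± 0.47 (adjusted p = 2.84e-10) and 2.34 ± 0.51 (adjusted p = 0.00726), and the gene differed at 4 h by 4.05 ± 0.55 (adjusted p = 0.000145). Its call in experiment 2 was lost without retina 5, the highest of that group, with adjusted p up to 0.15 over all alternatives.

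Interferon-stimulated genes differed as a list. Of 45 tested, 23 were induced in experiment 1, 5 in experiment 2 and 5 in both. The median response was 2.19 in experiment 1 and -0.16 in experiment 2, and the latter median ranged from -0.37 to 0.29 over the alternatives. At 4 h, 41 of the 45 had the higher mean in experiment 1, against 3750 of all 10183 genes, with a median difference of 1.42. The response was the larger in experiment 1 for 44, against 6230 of all genes. In naïve retinas the list already differed by a median of -0.73, against -0.45 over all genes. In 19 of the 45 every 4 h retina of experiment 1 was above every one of experiment 2, as for 6.03% of all genes. In 0 the reverse held, as for 11.7% of all genes. Single genes seldom passed: Herc6 was called at 4 h, and Ifit1 was called for the difference in response.

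The median of these 45 genes above the naïve mean of the same experiment was 1.43, 2.87 and 2.29 in experiment 1 and -0.18, 0.62 and -0.55 in experiment 2. The groups did not overlap, but retina 1 was the lowest of experiment 1 and retina 5 the highest of experiment 2. Retina 5 was the highest of its experiment for 36 of the 45 genes (80.0%), against 41.5% of all genes, and retina 1 the lowest of its own for 36 (80.0%), against 34.8%. Without retina 1 the median difference at 4 h was 1.78, and without retina 5 it was 1.74. At 18 h the list was 0.19 to 2.51 above naïve over 5 retinas, and the 1 retina of experiment 2 was at 2.13.

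**Figure D2:**
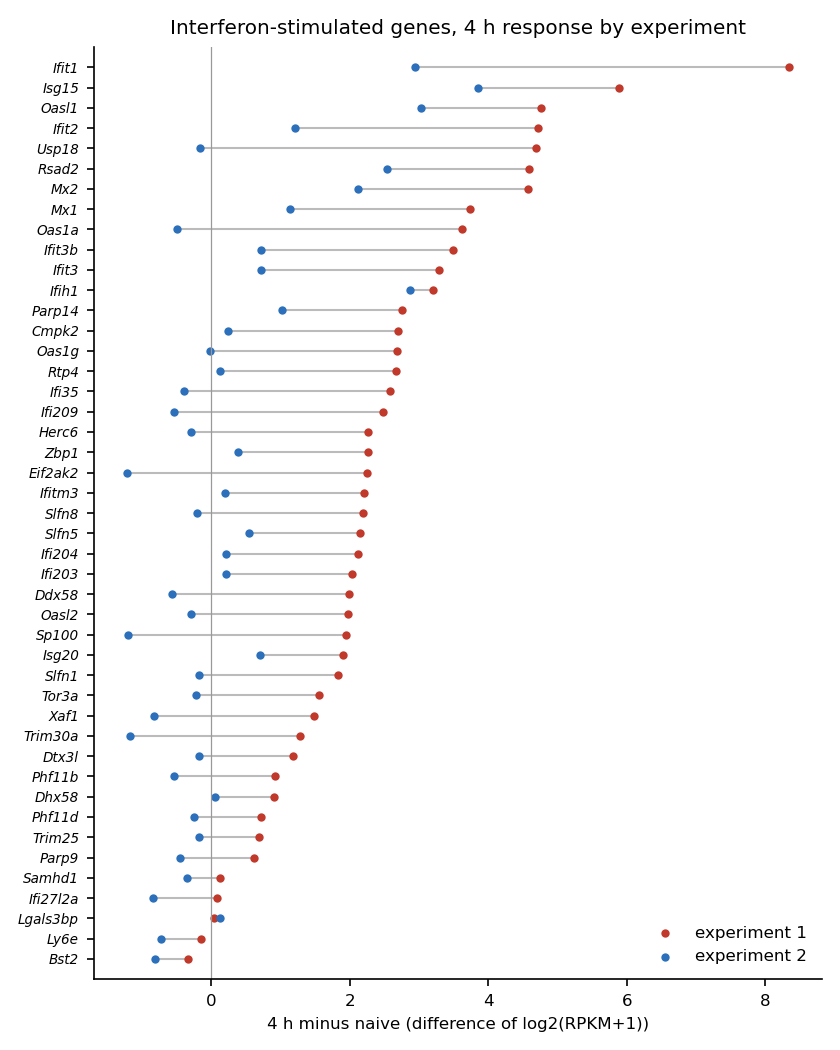
Difference between 4 h and naïve microglia on the log2(RPKM + 1) scale for the 45 interferon-stimulated genes tested, with the value in experiment 1 and the value in experiment 2 of each gene joined by a line. The value of experiment 1 is the larger for 44 of the 45 genes, as it is for 6230 of all 10183 genes.

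Ifit1, which binds viral RNA (chr19:34640871-34650009 on GRCm38), was at 233, 849 and 607 RPKM in experiment 1 and at 65.6, 178 and 30.9 RPKM in experiment 2, without overlap. Naïve retinas were at 0 to 3.67 RPKM in experiment 1 and at 5.53 to 16.1 RPKM in experiment 2, and they also differed, by -2.63 ± 0.64 (adjusted p = 0.0425). It was induced in both, by 8.34 ± 0.70 and 2.94 ± 0.76, and the responses differed by 5.40 ± 1.03 (adjusted p = 0.0201). This call was lost without any 1 of 4 h retinas 2, 3, 4 and 6 or naïve retina 7, with adjusted p up to 0.193 over all alternatives. Isg15, a ubiquitin-like modifier, was at 269, 528 and 244 RPKM in experiment 1 and at 71.0, 146 and 56.6 RPKM in experiment 2, and was induced by 5.89 ± 0.86 (adjusted p = 2.16e-05) and 3.85 ± 0.92 (adjusted p = 0.0172). Herc6, a ligase that attaches Isg15 in the mouse, was at 6.5, 47.8 and 38.0 RPKM in experiment 1 and at 1.57, 3.74 and 1.48 RPKM in experiment 2, and differed at 4 h by 2.96 ± 0.60 (adjusted p = 0.0141). In experiment 2 Herc6 lay within or just below its naïve range of 1.49 to 4.52 RPKM. Oasl1, an inhibitor of Irf7 translation, was at 84.2, 20.5 and 16.1 RPKM in experiment 1 and at 12.6, 40.6 and 8.18 RPKM in experiment 2, with overlap, and was induced in both. Without retina 5 the calls of Ifit1, Isg15 and Oasl1 in experiment 2 were lost. Those of Ifit1 and Isg15 were also lost without any 1 of naïve retinas 8, 9 and 10, and that of Ifit1 without retina 4, with adjusted p up to 0.502, 0.295 and 0.109 over all alternatives.

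The interferon-inducible GTPases, which act on the membranes around intracellular pathogens, had the same order. Of 14 tested, 9 were induced in experiment 1, 2 in experiment 2 and 2 in both, with a median response of 2.90 in experiment 1 and 0.32 in experiment 2. By retina the median above naïve was 1.21, 3.08 and 3.64 in experiment 1 and 0.10, 1.01 and -0.28 in experiment 2. Irgm1 was at 41.4, 65.0 and 95.8 RPKM in experiment 1 and at 10.6, 27.9 and 9.93 RPKM in experiment 2 and differed by 2.07 ± 0.47 (adjusted p = 0.0315). Gbp5 was at 29.1, 36.8 and 43.6 RPKM in experiment 1 and at 5.36, 22 and 7.53 RPKM in experiment 2 and differed by 1.78 ± 0.42 (adjusted p = 0.046). Both groups of retinas were separate for these 2 genes, and both calls were lost without any 1 of retinas 2, 3, 4 and 6. That of Irgm1 was kept in the other 12 of 16 left-out retinas, with adjusted p up to 0.311 over all alternatives. That of Gbp5 was kept in 7 of 16, being also lost without any 1 of naïve retinas 6 to 10, and its adjusted p reached 0.714. Gbp2 was at 109, 206 and 170 RPKM in experiment 1 and at 14.7, 48.0 and 25.5 RPKM in experiment 2, also without overlap, and its difference was not called (adjusted p = 0.17).

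The means of the interferon gene itself were in the reverse order. Ifnb1, which encodes interferon-β (chr4:88522025-88522774 on GRCm38), was at 65.2, 9.71 and 26.0 RPKM in experiment 1 and at 522, 269 and 307 RPKM in experiment 2. Naïve retinas reached 19.3 RPKM, so retina 2 lay within the naïve range. It was induced in both experiments, by 3.72 ± 0.84 (adjusted p = 0.00397) and 7.61 ± 0.91 (adjusted p = 3.38e-06). The 4 h groups did not overlap, but the difference of -3.72 ± 0.97 (adjusted p = 0.0938) missed the threshold. Ifnb1 was listed at 0 in all 5 retinas at 18 h. Its receptor gene Ifnar1 was at 22.2, 4.62 and 8.75 RPKM in experiment 1 and at 2.80, 11.3 and 5.90 RPKM in experiment 2, with overlap.

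At 4 h 63 genes were called between the experiments, 44 higher in experiment 1 (0.432% of genes tested) and 19 higher in experiment 2 (0.187%). The 3 and 3 retinas did not overlap for all 44 and for 18 of the 19, as for 6.03% and 11.7% of all genes in these directions. The calls rest on the same retinas, so this is not separate evidence. At an unadjusted p below 0.05 there were 789 genes, where 5% of the genes tested is 509. These calls use the spread of all 28 retinas: with the 6 retinas alone limma called 0 genes, with 1218 at an unadjusted p below 0.05, and all 63 kept their sign. Without retina 1, 117 genes were called, 56 higher in experiment 1 and 61 in experiment 2. Of the 63, 52 were still tested there and 46 were still called. Without retina 2, 3, 4 or 6 the count was 22, 26, 22 or 21. With quantile normalisation it was 125 and 19, and without retina 1 of both the 4 h and the naïve group it was 74 and 105.

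The genes higher in experiment 1 were low in naïve retinas, with medians of 0.369 and 0.571 RPKM in experiments 1 and 2, and at 4 h had medians of 11.6 and 1.70 RPKM. Of the 44, 38 were induced in experiment 1 (86.4%, against 5.58% of all genes) and 7 in experiment 2 (15.9%, against 1.87%). The 44 were chosen on the same 4 h values, so these shares and 4 h medians follow in part from the choice. Retina 5 was the highest of experiment 2 for 36 of the 44 (81.8%), and retina 1 the lowest of experiment 1 for 31 (70.5%).

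Surface receptors were found among them, of which Slamf1 and Cd44 are markers that the study followed up. Slamf1 was chosen on these samples, while for Cd44 the paper names a pilot study and an earlier report of it as a possible marker. Slamf1, a self-binding receptor of the SLAM family (chr1:171767127-171801184 on GRCm38), was at 68.4, 53.0 and 55.4 RPKM in experiment 1 and at 0.776, 8.61 and 0.839 RPKM in experiment 2. Naïve retinas had 1.5 RPKM or less, so retinas 4 and 6 lay within the naïve range. It differed at 4 h by 4.24 ± 0.55 (adjusted p = 0.000123) and in its response by 4.62 ± 0.70 (adjusted p = 0.00192). Cd44, the hyaluronan receptor (chr2:102811141-102901665 on GRCm38), was at 14.1, 57.5 and 27.4 RPKM in experiment 1 and at 1.04, 2.92 and 1.23 RPKM in experiment 2, and differed at 4 h by 3.49 ± 0.53 (adjusted p = 0.000677). Cd40, the receptor for CD40 ligand, was at 67.9, 84.7 and 74.0 RPKM in experiment 1 and at 12.2, 15.9 and 6.20 RPKM in experiment 2. Its induction was called in both, at 6.23 ± 0.42 and 2.93 ± 0.45, and its responses differed by 3.30 ± 0.61 (adjusted p = 0.0159). In all 3 genes the groups were separate. The call on the Cd40 responses was lost without retina 2 or 6, and the corresponding call for Cd44 (adjusted p = 0.021) without any 1 of retinas 2, 3, 4 and 6 and naïve retinas 7, 8 and 10, with adjusted p up to 0.313 for either gene over all alternatives. The death receptor Fas was at 76.6, 213 and 118 RPKM in experiment 1 and at 6.58, 42.2 and 4.49 RPKM in experiment 2, and its difference was not called (adjusted p = 0.154).

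Of 18 costimulation and adhesion genes tested, 16 were induced in experiment 1, 5 in experiment 2 and 5 in both, with a median response of 2.52 in experiment 1 and 1.24 in experiment 2. Cd83, a marker of mature antigen-presenting cells, was at 4284, 633 and 1428 RPKM in experiment 1 and at 1632, 3370 and 2522 RPKM in experiment 2. Cd69, an early activation antigen, was at 22.1, 52.4 and 80.9 RPKM in experiment 1 and at 51.7, 31.8 and 57.5 RPKM in experiment 2. Icam1, the ligand of LFA-1, was at 652, 112 and 120 RPKM in experiment 1 and at 94.5, 286 and 132 RPKM in experiment 2. Each was induced in both experiments, and the 3 and 3 retinas overlapped.

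Saa3, a serum amyloid A gene of the acute phase (chr7:46711998-46715700 on GRCm38), had the largest named difference towards experiment 1. It was at 15.2, 155 and 108 RPKM in experiment 1 and at 0.209, 2.58 and 1.85 RPKM in experiment 2, and differed by 4.81 ± 0.82 (adjusted p = 0.00251). Experiment 1 induced it by 5.55 ± 0.71 (adjusted p = 3.39e-06), with a difference of 0.88 ± 0.76 (adjusted p = 0.927) in experiment 2. The difference between these responses was not called. By 18 h Saa3 was at a mean of 6530 RPKM in experiment 1 and at 3010 RPKM in the 1 retina of experiment 2. Lcn2, which binds bacterial siderophores, was at 17.3, 14.1 and 13.7 RPKM in experiment 1 and at 2.03, 9.42 and 1.11 RPKM in experiment 2 at 4 h, and was not called between the experiments (adjusted p = 0.569). Ptges, the inducible prostaglandin E synthase, was at 15.5, 20.9 and 13.7 RPKM in experiment 1 and at 0.785, 0.593 and 0.80 RPKM in experiment 2, and differed by 3.34 ± 0.60 (adjusted p = 0.00351). Ptges passed the filter only through the retinas of experiment 1, so its groups could not overlap. Socs2, a suppressor of cytokine signalling, was at 16.8, 14.8 and 5.41 RPKM in experiment 1 and at 0.876, 4.18 and 1.00 RPKM in experiment 2, and differed by 2.18 ± 0.37 (adjusted p = 0.00251). The difference between its responses was 2.29 ± 0.47 (adjusted p = 0.0313), a call kept in 6 of 16 left-out retinas and 4 of 12 other settings, with adjusted p up to 0.65. Its relative Socs3 was at 724, 41.0 and 45.4 RPKM in experiment 1 and at 29.2, 115 and 66.9 RPKM in experiment 2, with overlap, and was induced in both.

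Hk2, a hexokinase of glycolysis, was at 48.2, 62.9 and 75.6 RPKM in experiment 1 and at 10.4, 24.1 and 13.5 RPKM in experiment 2, and differed by 1.95 ± 0.42 (adjusted p = 0.0245). Its naïve level was 21.9 to 59.0 RPKM in experiment 1 and 15.6 to 23.4 RPKM in experiment 2, and it was called against naïve in neither (adjusted p = 0.376 and 0.996). The small GTPase Rnd1 was at 104, 27.0 and 28.6 RPKM in experiment 1 and at 0.285, 24 and 3.86 RPKM in experiment 2. Its response was called in experiment 1, at 5.04 ± 0.63 (adjusted p = 2.36e-06), and was 1.80 ± 0.68 (adjusted p = 0.257) in experiment 2. Its call between the experiments at 4 h (adjusted p = 0.0469) was lost on leaving out any of 13 of 16 retinas, all 4 h retinas but retina 5 among them, with adjusted p up to 0.556 over all alternatives.

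**Figure D3:**
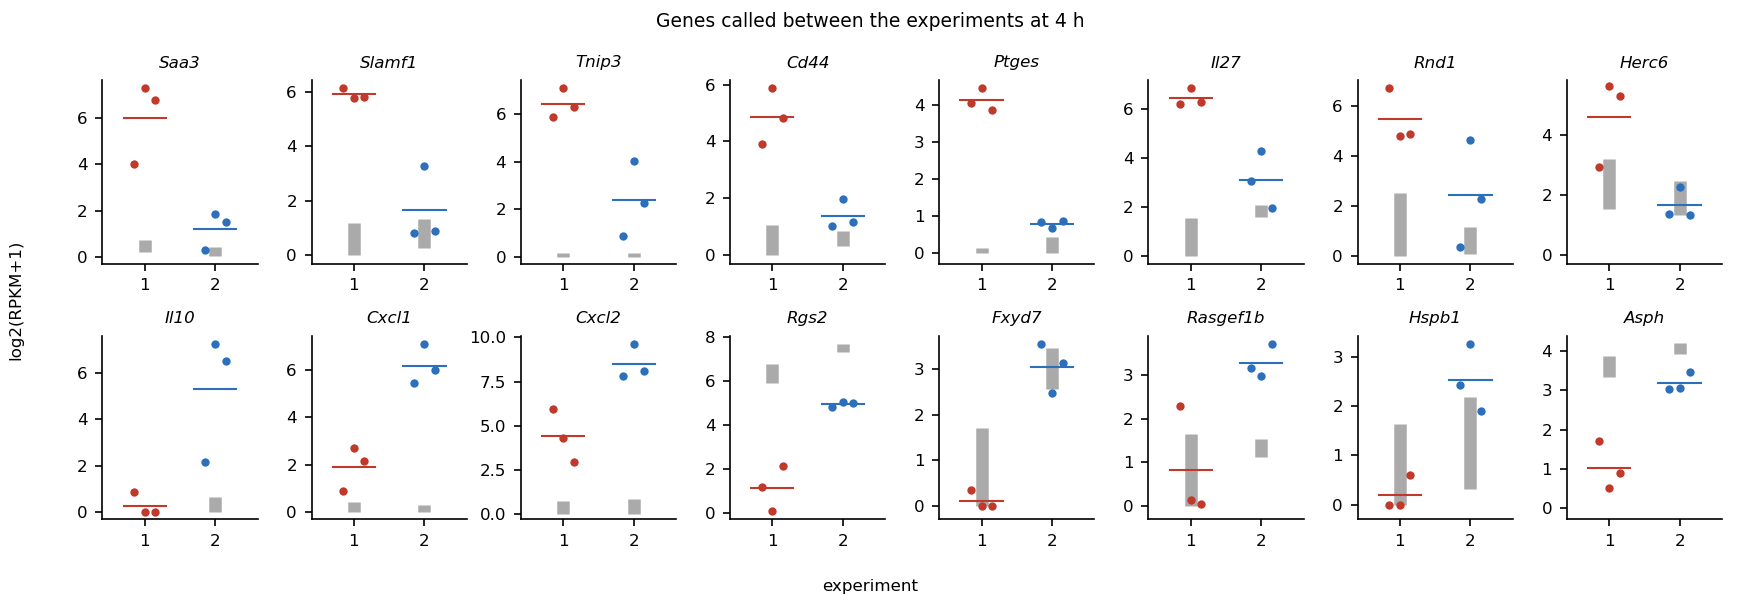
log2(RPKM + 1) of the 16 named genes called between the experiments at 4 h, with 1 point per retina, a line at each group mean and a grey bar for the naïve range of the same experiment. The 8 genes of the upper row are higher in experiment 1 and the 8 of the lower row in experiment 2, and Fxyd7 differs in the naïve retinas too.

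The 19 genes higher in experiment 2 were of several kinds. Of them, 10 were induced in experiment 2 (52.6%, against 1.87% of all genes) and 3 were reduced in experiment 1 (15.8%, against 3.81%). In naïve retinas 3 were called (15.8%, against 1.33%). The responses share the 4 h values on which the 19 were chosen. Rgs2, a regulator of G-protein signalling (chr1:143999338-144004161 on GRCm38), was at 1.28, 0.0478 and 3.39 RPKM in experiment 1 and at 26.9, 31.3 and 30.8 RPKM in experiment 2. Naïve retinas were at 57.5 to 107 RPKM and 157 to 201 RPKM, above every 4 h retina of the same experiment. It was reduced in both, with differences of -5.08 ± 0.51 (adjusted p = 7e-08) and -2.47 ± 0.55 (adjusted p = 0.00893), and differed at 4 h by -3.80 ± 0.59 (adjusted p = 0.000774). Asph, an aspartyl hydroxylase of the endoplasmic reticulum, was at 2.25, 0.409 and 0.849 RPKM in experiment 1 and at 7.24, 7.34 and 10.2 RPKM in experiment 2, and was reduced in experiment 1, with a difference of -2.65 ± 0.41 (adjusted p = 4.78e-05). Rasgef1b, an exchange factor for Ras-family GTPases, was at 3.85, 0.107 and 0.0387 RPKM in experiment 1 and at 7.86, 6.85 and 12 RPKM in experiment 2, and was induced in experiment 2 by 1.88 ± 0.48 (adjusted p = 0.0303). The last call was lost without any 1 of retinas 4, 5 and 6 and naïve retinas 7 to 10, with adjusted p up to 0.603 over all alternatives, and the difference between its responses was not called (adjusted p = 0.484).

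Hspb1, a small heat shock protein, was at 0, 0 and 0.519 RPKM in experiment 1 and at 4.37, 8.59 and 2.75 RPKM in experiment 2, and its responses were not called. Fxyd7, a regulator of the sodium pump, was at 0.264, 0 and 0 RPKM in experiment 1 and at 10.8, 4.61 and 7.78 RPKM in experiment 2. Its naïve retinas were at 0 to 2.27 RPKM and 4.95 to 10.2 RPKM and differed by -2.61 ± 0.50 (adjusted p = 0.0239), close to its difference at 4 h of -2.95 ± 0.63 (adjusted p = 0.0222). The difference between its responses was -0.34 ± 0.81. Hspb1 and Fxyd7 passed the filter only through the retinas of experiment 2, so their 4 h groups could not overlap. At 4 h the calls of Asph and Rasgef1b were lost without any 1 of retinas 2, 3, 4 and 6, that of Hspb1 without 1, 2 or 3, and that of Fxyd7 without 2 or 3, as those of Hk2 and Herc6 were without any 1 of 2, 3, 4 and 6. Over all alternatives the adjusted p of these 6 reached 0.2, 0.22, 0.158, 0.139, 0.251 and 0.193.

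The difference in response, each experiment against its own naïve retinas, was called for 17 genes (0.167%). The response was the larger in experiment 1 for 15 of them, and Cxcl1 and Cxcl2 were the other two. Of the 17, 15 were among the 63 called at 4 h. Saa3, Herc6, Irgm1, Gbp5, Ptges, Hk2, Rnd1, Rgs2, Asph and Hspb1 were called at 4 h but were not among the 17. For them a call against naïve in only 1 experiment does not show that the responses differed. At an unadjusted p below 0.05 there were 527 genes, against the same 509. Without retina 1, 39 genes were called, and without retina 5, 40, while without retina 2 or 6 there were 7. Naïve retinas differed between the experiments for 135 genes (1.33%), of which 112 were higher in experiment 2, and this count went to 1323 without naïve retina 1 and to 0 without naïve retina 9 or 10. At 2 weeks 1 gene was called (0.00982%), the mitochondrial transfer RNA mt-Tt, named after its value was seen, with 1273 at an unadjusted p below 0.05.

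Genes of the resting state were reduced in part in both experiments. Of 34 homeostatic genes tested, 15 were reduced in experiment 1, 6 in experiment 2 and 6 in both, with a median response of -1.39 in experiment 1 and -0.82 in experiment 2. Of all genes tested, 3.81%, 0.55% and 0.491% were so called. Hhex, a homeobox factor, was at 1.72, 0 and 0.465 RPKM in experiment 1 and at 2.36, 1.53 and 7.14 RPKM in experiment 2, against 31.5 RPKM or more in naïve retinas. Maf, a transcription factor of the AP-1 superfamily, was at 2.48, 3.81 and 2.23 RPKM in experiment 1 and at 4.05, 0.890 and 2.78 RPKM in experiment 2. Cysltr1, a receptor for cysteinyl leukotrienes, was at 2.20, 7.75 and 3.24 RPKM in experiment 1 and at 4.47, 3.36 and 6.61 RPKM in experiment 2. These 3 genes were reduced in both experiments, with differences for Hhex of -4.94 ± 0.50 (adjusted p = 7.74e-08) and -3.30 ± 0.54 (adjusted p = 0.000271), and none was called between the experiments.

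Of the receptors of the resting state, P2ry12 and Gpr34 were reduced in both experiments. P2ry12, the ADP receptor that steers microglial processes, was at 445, 85.3 and 151 RPKM in experiment 1 and at 1076, 210 and 954 RPKM in experiment 2. Its reduction was called in both, at -2.87 ± 0.50 (adjusted p = 0.000238) and -2.02 ± 0.54 (adjusted p = 0.0405). Gpr34, a receptor for lysophosphatidylserine, was at 135, 22.6 and 95.6 RPKM in experiment 1 and at 723, 86.0 and 470 RPKM in experiment 2. In both genes retina 5 was the lowest of experiment 2, and without it the call in experiment 2 was lost. It was also lost without any 1 of naïve retinas 8, 9 and 10, and for P2ry12 without naïve retina 7, with adjusted p up to 0.568 and 0.457 over all alternatives. Retina 5 was the highest of its experiment for 3 of the 34 homeostatic genes (8.82%), and retina 1 of its own for 26 (76.5%), against 43.7% of all genes. Siglech, a sialic acid-binding lectin, was at 208, 58.8 and 70.9 RPKM in experiment 1 and at 211, 168 and 196 RPKM in experiment 2, and was called in neither experiment (adjusted p = 0.413 and 0.996).

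**Figure D4:**
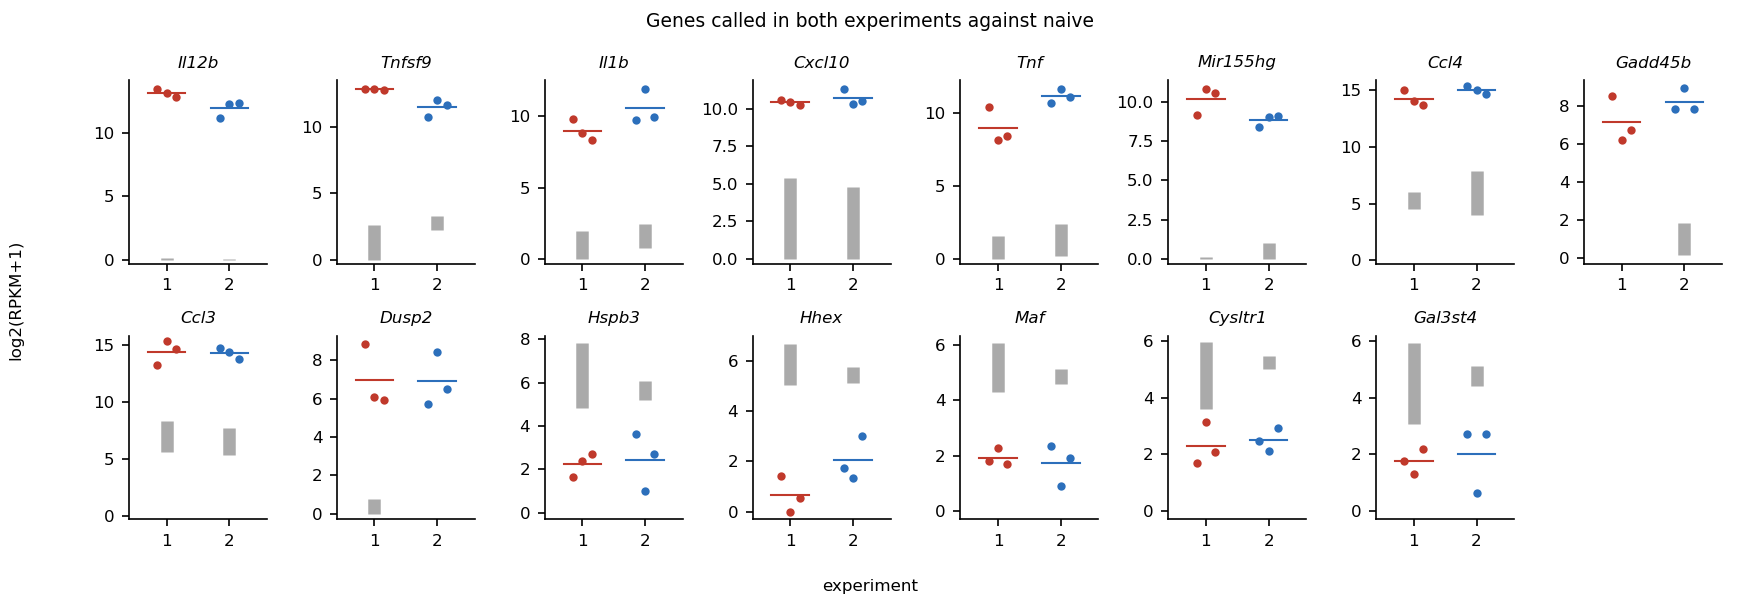
log2(RPKM + 1) of 15 named genes called in both experiments, with 1 point per 4 h retina, a line at each group mean and a grey bar for the naïve range of the same experiment. The means of the 10 induced genes lie above the grey bars and those of the 5 reduced genes below them in both experiments.

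The study followed up some markers that were chosen on these samples, so they are not independent evidence. C5ar1, the receptor for complement C5a, was at 812, 71.3 and 89.6 RPKM in experiment 1 and at 286, 646 and 377 RPKM in experiment 2, with retina 1 far above the other retinas of its group. Its response was 2.31 ± 0.74 (adjusted p = 0.0488) and 2.69 ± 0.80 (adjusted p = 0.085), and the call in experiment 1 was lost on leaving out any of 13 of 16 retinas, retina 1 among them, with adjusted p up to 0.435 over all alternatives. Mertk, a receptor for the uptake of dead cells, was at 6.68, 8.80 and 3.10 RPKM in experiment 1 and at 14.2, 9.78 and 14 RPKM in experiment 2. It was reduced in experiment 1 and not called in experiment 2 (adjusted p = 1.01e-06 and 0.0769), and the difference between the responses was not called (adjusted p = 0.315). The collagen receptor Lair1 was at 14, 3.02 and 7.41 RPKM in experiment 1 and at 43.3, 9.51 and 47.6 RPKM in experiment 2, and was reduced in both, a call that in experiment 2 was lost without retina 5 or any 1 of naïve retinas 7 to 10 (adjusted p up to 0.585 over all alternatives). Milr1 and Bst2 were called in neither.

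Immediate early genes varied by retina within each experiment. Of 18 tested, 6 were induced in experiment 1, 7 in experiment 2 and 5 in both, with a median response of 1.55 in experiment 1 and 1.89 in experiment 2. By retina the median above naïve was 3.22, 0.35 and 1.46 in experiment 1 and 1.06, 2.76 and 1.55 in experiment 2. Retina 1 was the highest of experiment 1 for 15 of the 18 (83.3%), against 43.7% of all genes. Junb, a subunit of AP-1, was at 1039, 22.2 and 29.6 RPKM in experiment 1 and at 105, 426 and 240 RPKM in experiment 2. Ier3, a gene that responds to NF-κB, was at 443, 36.1 and 41.4 RPKM in experiment 1 and at 140, 829 and 304 RPKM in experiment 2. Dusp1, a phosphatase that ends p38 signalling, was at 1747, 178 and 258 RPKM in experiment 1 and at 181, 883 and 639 RPKM in experiment 2. In these 3 genes retinas 1 and 5 were the highest of their experiments. The call of Junb in experiment 1 was lost without retina 1 or any 1 of naïve retinas 3, 4 and 5, and that of Ier3 in experiment 2 without retina 5, with adjusted p up to 0.302 and 0.223 over all alternatives. Without retina 1 the median difference of the list between experiments went from -0.88 to -1.89.

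Of 20 genes of toll-like receptor signalling, 3 were induced in experiment 1, 2 in experiment 2 and 2 in both. Of all genes tested, 5.58%, 1.87% and 1.53% were so called. Cd14, the co-receptor that passes LPS to toll-like receptor 4, was at 13498, 3426 and 3062 RPKM in experiment 1 and at 1874, 14678 and 3490 RPKM in experiment 2. Tlr2, a receptor for bacterial lipoproteins, was at 1263, 208 and 305 RPKM in experiment 1 and at 475, 773 and 554 RPKM in experiment 2. Both were induced in both experiments, with retinas 1 and 5 again the highest. Tlr4 itself was at 1.12, 0 and 0.0160 RPKM in experiment 1 and at 0.980, 1.63 and 1.21 RPKM in experiment 2, against 0.697 to 10.4 RPKM and 8.49 to 12.4 RPKM in naïve retinas, and was reduced in both (adjusted p = 0.00898 and 0.0334). Leaving out retina 2 or 3 ended its first call and leaving out retina 4 or any 1 of naïve retinas 7 to 10 its second, with adjusted p up to 0.198 and 0.143 over all alternatives.

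Of 24 effector and metabolic genes tested, 9 were induced in experiment 1, 7 in experiment 2 and 7 in both. Acod1, which makes itaconate, was at 142, 149 and 81.7 RPKM in experiment 1 and at 57.8, 57.6 and 62.2 RPKM in experiment 2. Slc7a11, the cystine transporter, was at 28.1, 13.6 and 10.7 RPKM in experiment 1 and at 8.11, 38.0 and 10.9 RPKM in experiment 2. Ch25h, which makes 25-hydroxycholesterol, was at 308, 656 and 460 RPKM in experiment 1 and at 89.3, 205 and 69.7 RPKM in experiment 2. All 3 were induced in both experiments and none was called between them. Of 83 ribosomal protein genes and 38 proteasome genes tested, 0 were called against naïve in either experiment. Of all genes tested, 5.58% were induced and 3.81% reduced in experiment 1, and 1.87% and 0.55% in experiment 2. The ribosomal genes were higher in experiment 2 by mean for 69 of 83 and in experiment 1 for 14, while 3750 of all 10183 genes were higher in experiment 1. In 21 of the 83 the retinas did not overlap in the direction of experiment 2, as for 11.7% of all genes.

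**Figure D5:**
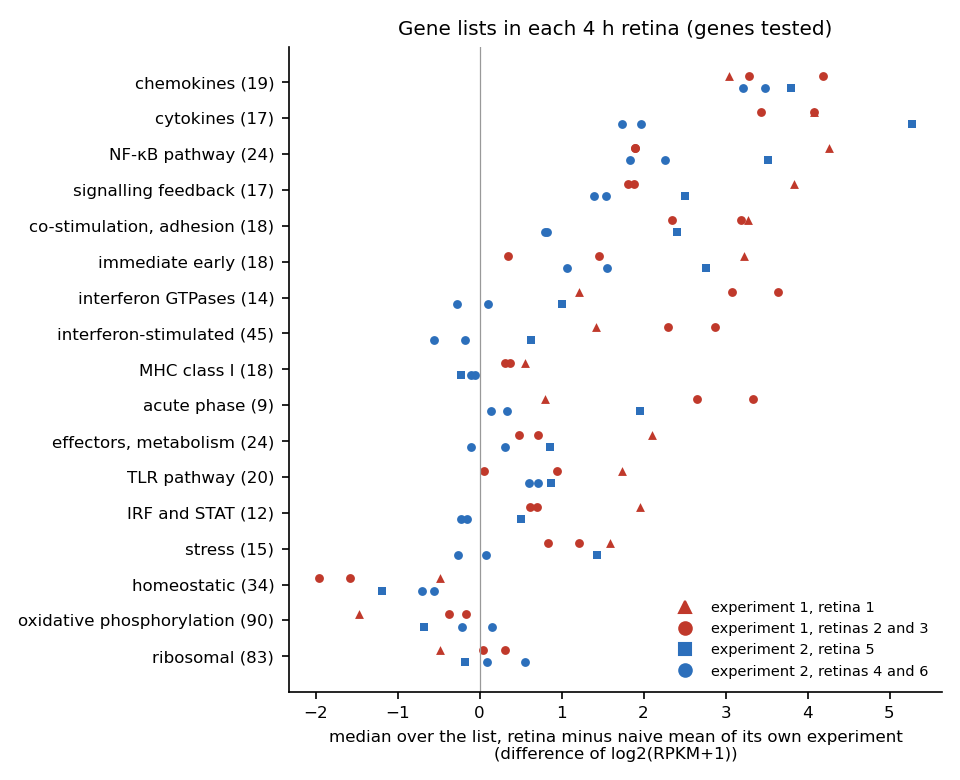
Median over each gene list of the difference between a 4 h retina and the naïve mean of its own experiment, on the log2(RPKM + 1) scale, with 1 symbol per retina and the number of genes tested in brackets. The 2 experiments overlap for chemokines and NF-κB genes. They are separate for interferon-stimulated genes, interferon-inducible GTPases, MHC class I genes, and IRF and STAT genes. For MHC class I the values are 0.553, 0.37 and 0.312 in experiment 1 and -0.109, -0.224 and -0.058 in experiment 2. For IRF and STAT genes they are 1.962, 0.618 and 0.695 and -0.147, 0.508 and -0.224. The 4 h levels of the MHC class I genes differed by a median of only 0.06, with 10 of 18 higher in experiment 1. Their naïve levels differed by a median of -0.45, as did those of all genes, so their separation here rests largely on the baselines.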

How the data were processed

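Retinal microglia of 28 retinas were profiled by RNA sequencing after SMART-Seq v4 amplification and Nextera XT library preparation, and were sorted in randomised blocks balanced over the groups. The submitters' processing notes name bcl2fastq 2.20, STAR 2.5.3a, Partek and the build mm10. The authors deposited 1 table of RPKM values, normalised to transcript length and library size, together with tables of their own comparisons at 4 h and 18 h, which were not used. Depth is known only as alignments per library, so no counting interval is given. An RPKM of 0 is described as listed at 0.

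The 4 h retinas set the filter (1 RPKM or more in 3 or more of 6), and values were taken as log2(RPKM + 1), a scale that understates the change of low genes. All 28 retinas were fitted with 1 mean for each time and experiment in limma 3.58.1 (R 4.3.3) with a variance trend. Every p-value was two-sided and was adjusted by Benjamini-Hochberg over all genes tested. Calls needed an adjusted p of 0.05 or lower and a change of 2-fold or more. The fit was checked on simulated data. Named genes were those called between the experiments with the largest differences and no overlap (8 each way), those called in both and clear of the naïve range whose smaller response was largest (10 induced, 6 reduced), the study's 10 markers, and of each list the members called between the experiments and the 3 with the largest mean response. Predicted genes were passed over, and 1 gene that the rule selects is not reported here. The members, lists and tests were chosen with earlier results of these data known. Alternatives changed the pseudocount, filter, samples fitted, scaling and covariates, left out single retinas, or blocked on replicate number. Promoters came from RefSeq (GRCm38.p6) and coordinates from GENCODE M21 (GRCm38). Figures were drawn with matplotlib 3.10.9 in Python 3.11.15.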

Additional observations from a re-analysis of the deposited data

Results flagged for a closer look

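Among the 6 retinas at 4 h, retina 4 had 19700000 alignments and stood far above the other five. Retina 4 was also far above the others for Cxcl10, at 2566 RPKM, and retina 1 was far above for H2-K1, a class I MHC gene, at 491 RPKM. Retina 1 was far below the others for Rpl15, a ribosomal protein gene, at 35.5 RPKM. These were 3 of 93 genes examined, and chance marks about 5% of genes in this way.

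The difference in response between the experiments was called by limma for 15 genes with an established symbol. It was 5.40 for Ifit1, 4.96 for Il27, 4.62 for Slamf1, 4.05 for Tnip3, 3.49 for Cd44, 3.30 for Cd40 and 2.29 for Socs2 (kept in 6 of 16 left-out retinas), all larger in experiment 1, and -4.24 for Cxcl1 and -3.83 for Cxcl2, larger in experiment 2. The others were chosen after their values were seen, and all were larger in experiment 1: Trim30c at 4.84, Creb3l1 at 4.02, Adm (adrenomedullin) at 3.81, Il4i1 (an amino acid oxidase) at 2.88, Ifitm7 at 2.03 and Adamts4 (a protease of the matrix) at 1.91.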

How the results depend on the processing

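Of 151 results for named genes, 81 kept their side of the threshold in every setting where they were tested, and 0 changed direction. The settings were the 11 alternatives, the 16 left-out retinas, both retinas 1 left out and, for responses in experiment 1, the replicate block. Over the single left-out retinas alone 109 kept their side. Genes that failed the filter in a setting were not tested there, and Il10 and Ptges were tested for 13 of the 16 left-out retinas. The counts of called genes moved more. A pseudocount of 0.1 gave 24 genes different at 4 h (14 higher in experiment 1, 10 in experiment 2), 1 different in response, 143 responding in experiment 2, 132 shared and 37 different in naïve retinas. A pseudocount of 10 gave 30 different in response, 503 responding in experiment 1, 89 different in naïve retinas and 0 at 2 weeks, and a median of 0.71 for the interferon-stimulated list at 4 h. No filter gave 12 genes at 2 weeks. A filter at 5 RPKM, which tests fewer genes, gave 29 at 4 h, 612 responding in experiment 1, 28 in naïve retinas and 0 at 2 weeks. Fitting only the groups compared gave 0 at 4 h, 328 and 1309 responding in experiments 1 and 2, 58 in naïve retinas and 0 at 2 weeks. Eye side as a covariate gave 2 at 2 weeks. Quantile normalisation gave 144 at 4 h, 389 responding in experiment 2 and 0 at 2 weeks. The number of detected genes as a covariate gave 122 at 4 h (89 and 33), 538 responding in experiment 2, 380 shared and 3 in naïve retinas. Leaving out retina 1 of both the 4 h and the naïve group, chosen after seeing the data, gave 179 at 4 h, 43 in response, 1501 in naïve retinas and 17 at 2 weeks. Leaving out single retinas gave 21 to 117 at 4 h, 7 to 40 in response, 636 to 1425 responding in experiment 1, 139 to 276 in experiment 2, 119 to 227 shared, 0 to 1323 in naïve retinas, 1 to 8 at 2 weeks and a list median of 1.10 to 1.78. The replicate block in experiment 1 gave 239 responding genes. Whether replicate numbers pair the retinas is not known from the labels. Same-numbered naïve and 4 h retinas of experiment 1 correlated in their deviations at 0.712, -0.0189 and 0.0925. So few pairs, measured from the means of small groups, cannot decide it. The cause of these shifts was not tested. The median SE of a difference at 4 h was 0.67.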
